A study of Mus musculus with 12 samples.

Results

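The cytoplasmic ribosomal protein genes were described across 12 RNA-seq libraries of female mouse embryonic stem cells (mESC) and embryoid bodies (EB). Members were chosen from the symbols of the count table. The rule took Rpl or Rps followed by digits, with an optional a, x, l or p ending, together with Rpsa, Rplp0, Rplp1 and Rplp2. Rps6k genes and symbols ending in -ps were left out. A measured value also entered the choice, since symbols with a mean below 5 CPM over all libraries were dropped (CPM, counts scaled to the total of each library). Of 24391 symbols in the table, 81 matched the names, 61 were members and 20 lay under the limit. The members comprised 37 genes of the large subunit and 24 of the small subunit.

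The cytoplasmic ribosome joins a large subunit, which forms peptide bonds, to a small subunit, which reads the messenger RNA. Each subunit is built from ribosomal RNA and a set of proteins, nearly every one of which is encoded by its own gene. Their messenger RNAs commonly begin with a run of pyrimidines at the 5′ end, the TOP motif, through which mTOR signalling controls their translation. Because these messages are short and abundant, mammalian genomes carry many processed pseudogenes copied from them. A few members also have working retrogene or duplicate paralogs, which in mammals are best known from the testis.

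The study used 4 cell lines from crosses of C57BL/6J-129/SvJ with Mus musculus castaneus, all with CreERT at 1 Rosa26 allele (Rs26+/CreERT). Lines 5.3 and 5.16 were Rif1+/+ and are called WT, as replicates 1 and 2. Lines 15.10 and 16.9 were Rif1F/F and are replicates 3 and 4. The Rif1F/F lines are called F/F without 4-hydroxytamoxifen (OHT), which activates CreERT, and KO after it. Each line gave 1 library without OHT ("before OHT"), 1 after 2 days of OHT as mESC, and 1 as 2-day EB from OHT-treated cells. The WT lines received OHT too, and the labels give the age of no animal. The 6 groups therefore hold 2 libraries each, from 2 lines. The series' text states 1 technical replicate, so each line was sampled once per condition. Each p-value rests on the spread between the 2 lines within groups, pooled over the 6 groups and moderated across genes. The main model did not pair the libraries of the same line. Other differences between the pairs of lines cannot be told apart from Rif1 genotype. Condition coincided with the first part of the description label, which may mark a batch. Thus condition cannot be told apart from that part of the label, which was the same for both genotypes within a condition.

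Rif1 itself, the deleted gene, had 1567 and 1802 CPM in WT before OHT, 1204 and 1157 CPM in F/F, and 719 and 654 CPM in KO mESC. It stood at 1511 and 1442 CPM in WT mESC, 1354 and 1308 CPM in WT EB, and 806 and 861 CPM in KO EB. Rif1 was thus lower in KO than in WT after OHT and was also lower in F/F than in WT before it. Counts per library summed to between 28600870 and 64808897. The 8 mESC markers summed to between 4850 and 6325 CPM in mESC and between 1566 and 1846 CPM in EB, with none at 0. The 6 early EB markers summed to between 206 and 322 CPM in mESC, to 2625 and 2592 CPM in WT EB, and to 1444 and 1425 CPM in KO EB. The 9 feeder fibroblast markers summed to between 4.33 and 19.6 CPM, and 6 of them were at 0 in at least 1 library. WT mESC replicate 1 stood apart from the other libraries: Lars2 took 0.869% of its counts against at most 0.140% elsewhere. Values without this library are given for some of the results that use it.

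All 61 members passed the filter on low counts, and 17115 genes were tested. Levels differed widely between members on every scale. Rpl8, a large subunit protein near the peptidyl transferase centre, had the highest level per coding kilobase at 2121 CPM. Rpl39, a short protein lining the peptide exit tunnel, had 1784 CPM per coding kilobase. This scale divides reads per gene symbol by coding length alone, which can raise genes with a short coding sequence. Rpl39, with 153 coding bases, averaged 273 CPM, and Rpl41, with 75, averaged 34.1 CPM, or 455 per coding kilobase. At the other end lay Rpl5, which binds 5S ribosomal RNA, with 8.04 CPM per coding kilobase, Rps6, a substrate of S6 kinase, with 9.89, and Rpl13 with 10.2. Rpl11, the partner of Rpl5 in the 5S ribonucleoprotein, averaged 4.52 CPM and fell under the limit. The symbols nearest the limit were Rpl28 inside it with 5.10 CPM and Rpl24 outside it with 4.71 CPM, while Rpl26 had no count in any library.

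These levels moved with the amount of coding sequence that other annotated genes share. Each coding sequence was divided into all its overlapping 50-base words. A word was called shared if it occurred in a transcript of another annotated gene, leaving out genes whose positions overlap. Rps4l has no annotated coding sequence, so its words and its level per kilobase used the whole transcript of 943 bases. Of the members, 18 had every word shared, 46 had at least 50% shared and 15 had less. Over the 61 members, the share of words and the level per coding kilobase had a Spearman rho of -0.72, and over the 81 symbols of -0.58. This is a description across genes, which are not independent and share libraries and pseudogene families. The 5 symbols with at most 10% of words shared had a median of 1725 CPM per coding kilobase, from 1.26 to 2121. The low value among them was Rpl3l, a striated muscle paralog of Rpl3. The 11 symbols with over 10% to 50% had a median of 494, the 23 with over 50% to 90% had a median of 190, and the 42 with over 90% had a median of 19.5. Of the 20 symbols under the limit, 12 had every word shared. Deposited levels between members are therefore given beside this share, whose part in the levels was not tested.

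**Figure D1:**
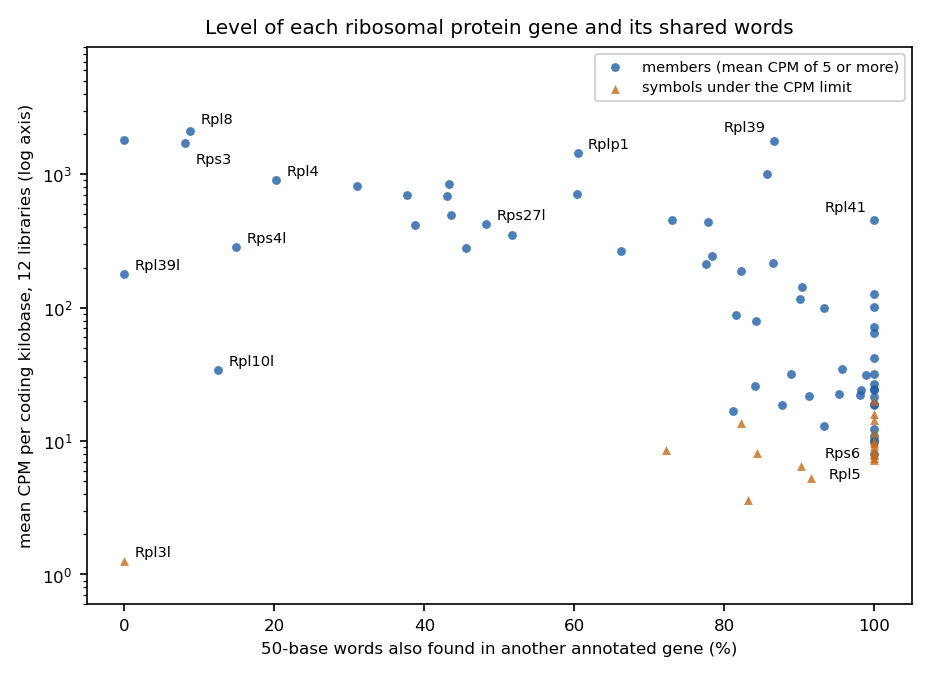
Mean CPM per coding kilobase over 12 libraries (log axis) against the percentage of 50-base words found in another annotated gene, for 61 members (circles) and 19 of the 20 symbols under the limit (triangles); Rpl26, at 0, cannot be drawn on the log axis. Rpl8 and Rps3 stand high at few shared words, and the members with every word shared range from 8.04 for Rpl5 to 455 for Rpl41.

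Counts were concentrated in a few members. Rpl8 held 14.5% of all counts in the family, Rps3 11.2% and Rpl4 10.4%, together 36.1%. A related symbol outside the rule could exceed its member. Rpl14-ps1, named as a pseudogene, averaged 534.6 CPM against 284 CPM for Rpl14, and Rpl37rt, a retrotransposed copy, averaged 322 CPM against 55.2 CPM for Rpl37. The paralogs Rpl7l1, Rpl36al and Rpl22l1, whose longer endings the rule does not take, averaged 181, 54.9 and 20.7 CPM.

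The members with the largest departures from the family include paralogs of X-linked genes. Rpl10l is a paralog of Rpl10, and Rpl39l of Rpl39. The first 150 coding bases of the Rpl10 pair and the whole coding sequence of the Rpl39 pair are shown because they bear on whether reads of a paralog can be told from those of its X-linked partner. Letters in capitals are positions at which the paired sequences differ.

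Rpl10: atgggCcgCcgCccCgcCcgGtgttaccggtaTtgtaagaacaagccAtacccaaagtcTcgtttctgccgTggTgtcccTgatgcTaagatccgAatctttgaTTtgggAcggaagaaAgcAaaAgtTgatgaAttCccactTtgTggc

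Rpl10l: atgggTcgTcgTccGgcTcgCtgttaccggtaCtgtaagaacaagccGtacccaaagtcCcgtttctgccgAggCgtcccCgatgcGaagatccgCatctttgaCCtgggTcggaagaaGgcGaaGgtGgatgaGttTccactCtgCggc

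Rpl39: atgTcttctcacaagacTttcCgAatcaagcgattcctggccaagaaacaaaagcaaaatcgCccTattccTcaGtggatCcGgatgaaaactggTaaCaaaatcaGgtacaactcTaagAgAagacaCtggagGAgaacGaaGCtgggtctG

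Rpl39l: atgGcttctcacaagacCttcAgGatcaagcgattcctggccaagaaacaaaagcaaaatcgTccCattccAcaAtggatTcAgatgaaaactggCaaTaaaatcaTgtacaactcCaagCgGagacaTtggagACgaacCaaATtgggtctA

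These are coding sequences of the GENCODE M21 annotation of GRCm38, printed 5′ to 3′ on the coding strand. In that build Rpl10 lies at chrX:74270812-74273135, Rpl10l at chr12:66283379-66284401, Rpl39 at chrX:37082520-37085402 and Rpl39l at chr16:10170226-10174911. Over the full coding length, Rpl10 and Rpl10l differed at 98 of 642 bases (84.7% identity) with a longest shared run of 23 bases. Rpl39 and Rpl39l differed at 23 of 153 bases (85.0% identity) with a longest shared run of 38 bases. Rps27 and its paralog Rps27l differed at 60 of 252 bases, with a longest shared run of 11. No 50-base word was common to the partners of any of these pairs, nor to Rps4x and Rps4l. Of its own words, Rpl10l shared 12.5% with 1 pseudogene and Rpl39l shared none, whereas Rpl10 shared 100% and Rpl39 86.5%.

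Start sites are shown for the 5 members farthest from the family in KO against WT mESC, to show whether each has a TOP-like tract. Each line gives 30 bases, 15 on either side of the RefSeq start of the gene, and capitals mark a run of at least 5 pyrimidines that begins with C within 5 bases of the start.

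Rps2: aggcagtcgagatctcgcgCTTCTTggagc

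Rps6: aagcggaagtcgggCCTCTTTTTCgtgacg

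Rpsa: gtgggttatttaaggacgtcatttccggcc

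Rpl10l: tttggcctccattttgcggctggcggtggg

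Rpl39l: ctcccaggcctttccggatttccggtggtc

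These windows come from the RefSeq promoter table of GRCm38.p6, at chr17:24720048-24720077 (plus strand), chr4:86857353-86857382 (minus), chr9:120127751-120127780 (plus), chr12:66284387-66284416 (minus) and chr16:10170213-10170242 (plus). Rps2 and Rps6 hold such a tract in this window and the other 3 do not. The table held starts for 45 of the 61 members in 53 entries. A tract was present in 41.5% of member entries and in 18.3% of all 32851 entries. CCGGAAG, the core bound by ETS factors, occurred on either strand in 37.7% of member entries and 8.86% of all entries, each of which spans 250 bases before to 50 after the start. The YY1 core AAGATGGC occurred on either strand in 5.66% and 2.75%. A match is a description of the letters only.

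Summed as a family, the members took a similar part of every library. Their share of counts was 1.11% and 1.08% in WT before OHT, 1.10% and 1.13% in F/F before OHT, and 0.981% and 1.14% in WT mESC. It was 1.18% and 1.17% in KO mESC, 1.16% and 1.14% in WT EB, and 1.19% and 1.13% in KO EB. Group means ran from 1.06% ± 0.110 (SD, n = 2) in WT mESC to 1.17% ± 0.00952 (SD, n = 2) in KO mESC. The lowest share belonged to WT mESC replicate 1, the library that stood apart, and the remaining libraries covered 1.08% to 1.19%. The median member level was less even. After TMM scaling it was 49.8 ± 1.18 CPM (SD, n = 2) in WT before OHT and 37.6 ± 4.22 in F/F. After OHT it was 43.6 ± 8.06 in WT mESC and 41.5 ± 0.811 in KO mESC. In EB it was 42.6 ± 0.0946 in WT and 56.3 ± 0.567 in KO. This median is the level of the middle-ranked member, which can be another gene in each library. Rpl10l averaged 11.7 CPM in WT EB and 60.4 CPM in KO EB, and Rpl39l 24.2 and 65.5 CPM. With these 2 moving up the ranking, the middle rank fell on other members in KO EB. The median log2 fold change of members in KO against WT EB was -0.09. In bulk samples, fewer cells of a type and less RNA per cell cannot be told apart.

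**Figure D2:**
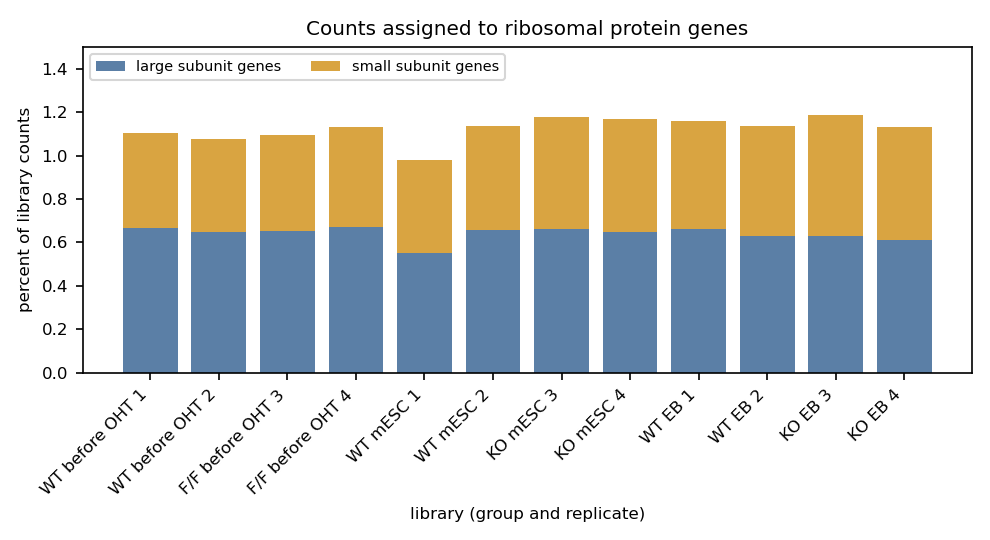
Percentage of library counts assigned to the 37 large subunit genes and 24 small subunit genes in each of the 12 libraries, from a zero baseline. Stacked totals lie between 1.08% and 1.19% except for WT mESC replicate 1 at 0.981%.

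Genotype comparisons left the family median log2 fold change near that of all genes, with single members moving in both directions. Fold changes below are edgeR estimates, a member was called at a Benjamini-Hochberg adjusted p under 0.05 over all genes tested, and SE is the standard error. Before OHT, 10 members were higher and 16 lower in F/F than in WT, where 19.9% and 17.5% of all genes tested were called higher and lower. The median log2 fold change was -0.05 for members and 0.00 for all genes. In mESC after OHT, 8 members were higher and 13 lower in KO than in WT, against 19.8% and 18.6% of all genes, with medians of -0.03 and 0.00. In EB, 7 members were higher and 12 lower in KO, against 20.7% and 19.7% of all genes, with medians of -0.09 and -0.02. Without WT mESC replicate 1, 7 members were higher and 9 lower in KO mESC. Shares of all genes called are those of the main fit unless another fit is named with them. Member counts from alternative fits therefore have no such background beside them. Other scalings moved the median of members together with that of all genes. Scaling by library totals gave 13 higher and 10 lower in KO mESC, with medians of 0.03 for members and 0.05 for all genes. Upper-quartile scaling gave 5 higher and 20 lower in F/F before OHT, with medians of -0.12 and -0.07.

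Because the members differ in how much sequence they share, the calls were also counted in the less shared part. Among the 15 members with under 50% of words shared, 4 were higher and 2 lower before OHT, 4 higher and 3 lower in mESC, and 3 higher and 2 lower in EB. Among the 46 others, 6 were higher and 14 lower before OHT, 4 and 10 in mESC, and 4 and 10 in EB. Medians of the less shared members were 0.08, 0.08 and -0.04, and those of the others -0.11, -0.10 and -0.12. The difference between these parts of the family, and the part of sequence sharing in it, was not tested.

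In all, 38 of 61 members were called in at least 1 of the 3 genotype comparisons, where 68.4% of all genes tested were. Rps2, Rplp0, Rps20 and Rpl39l were higher in all 3, as were 4.97% of all genes. Rpsa, Rps6, Rpl3, Rpl4 and Rps12 were lower in all 3, as were 4.52% of all genes. Rps12, a member like the others, was named after its values were seen and not by the rule for genes named in the text. The groups before OHT are of the same lines, so these members differed between the pairs of lines already without OHT.

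Rps2, a small subunit protein at the entry of the mRNA channel, showed the largest genotype difference in mESC. It had 14.5 and 15.1 CPM in WT before OHT, and 33.2 and 29.4 CPM in F/F. After OHT it had 9.18 and 11.5 CPM in WT mESC and 43.1 and 46.3 CPM in KO mESC. In EB it had 11.5 and 10.6 CPM in WT and 24.5 and 24.7 CPM in KO. Every F/F and KO library lay above every WT library. The log2 fold change was 1.10 (SE 0.10, adjusted p = 2.1e-07) before OHT, 2.06 (SE 0.10, adjusted p = 9.1e-11) in mESC and 1.10 (SE 0.10, adjusted p = 2.4e-07) in EB, by edgeR. The difference grew by 0.96 after OHT (SE 0.14, adjusted p = 0.00054) and was smaller by 0.96 in EB than in mESC (SE 0.14, adjusted p = 0.00011). Rps2 shared 84.1% of its words with other genes, 71 of them pseudogenes, and the part of those copies in its counts was not tested.

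Rpsa, the small subunit protein also known as the laminin receptor, went the other way. It had 39.2 and 43.7 CPM in WT before OHT and 16.8 and 15.7 CPM in F/F. It had 35.6 and 34.4 CPM in WT mESC and 20.4 and 16.6 CPM in KO mESC, and 41.4 and 38.6 CPM in WT EB against 15.7 and 16.2 CPM in KO EB. No F/F or KO library reached the lowest WT library. Its log2 fold changes were -1.33 (SE 0.10) before OHT, -0.98 (SE 0.10) in mESC and -1.39 (SE 0.10) in EB, with adjusted p from 5.7e-09 to 4.9e-07 by edgeR. Of its words 98.8% were shared, with 28 other genes.

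Rps6 had 9.06 and 10.1 CPM in WT before OHT and 4.40 and 4.74 CPM in F/F. It had 9.18 and 11.1 CPM in WT mESC against 4.47 and 4.90 CPM in KO mESC, and 10.4 and 8.43 CPM in WT EB against 5.54 and 6.36 CPM in KO EB. As for Rpsa, the WT libraries lay above all others. Log2 fold changes were -1.04, -1.16 and -0.73 in the same order (SE 0.15 each), all called. All of its words were shared, with 14 pseudogenes. The genotype difference of Rps6 was not called as different between before and after OHT (-0.12, SE 0.21, adjusted p = 0.77, edgeR) or between mESC and EB (0.44, SE 0.21, adjusted p = 0.14).

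Among the stalk proteins, which recruit translation factors to the large subunit, Rplp0 forms the base and Rplp1 and Rplp2 are its acidic partners. Rplp0 had 525 and 508 CPM in WT before OHT and 725 and 764 CPM in F/F. It had 405 and 560 CPM in WT mESC, 793 and 815 CPM in KO mESC, 650 and 617 CPM in WT EB, and 874 and 833 CPM in KO EB. Within each condition both F/F or KO libraries exceeded both WT libraries. Log2 fold changes were 0.55 (SE 0.10), 0.68 (SE 0.10) and 0.37 (SE 0.10), with adjusted p = 0.00021, 3.0e-05 and 0.0051 by edgeR. The call in EB ended without KO EB replicate 3 (0.33, adjusted p = 0.051). Rplp1 and Rplp2 had genotype log2 fold changes of -0.26 and -0.05 before OHT, neither called. Rplp1 stood at 175 CPM in WT mESC replicate 1 and 496 in replicate 2, and at 399 and 431 CPM in KO mESC. Rplp2 stood at 34.1 CPM in WT mESC replicate 1 and 82.5 in replicate 2, against 88.7 and 101 CPM in KO mESC. Its call there (0.67, SE 0.23) ended without replicate 1 (0.20, adjusted p = 0.23).

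Rps20, Rpl3, Rpl4 and Rps12 were the other core members called with the same sign in all 3 genotype comparisons. Rps20, a small subunit protein, had 303 to 333 CPM in the 6 WT libraries and 377 to 417 CPM in the other 6. Its log2 fold changes were 0.41, 0.30 and 0.22 (SE 0.06 each). Rpl3 and Rpl4, large subunit proteins near the catalytic centre and the exit tunnel, fell by 0.74, 0.47 and 0.36, and by 0.19, 0.19 and 0.35. Rps12 fell by 0.49, 0.33 and 0.40. The EB call of Rps20 ended without WT EB replicate 2 (0.21, adjusted p = 0.0502) or KO EB replicate 4 (0.19, adjusted p = 0.082).

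**Figure D3:**
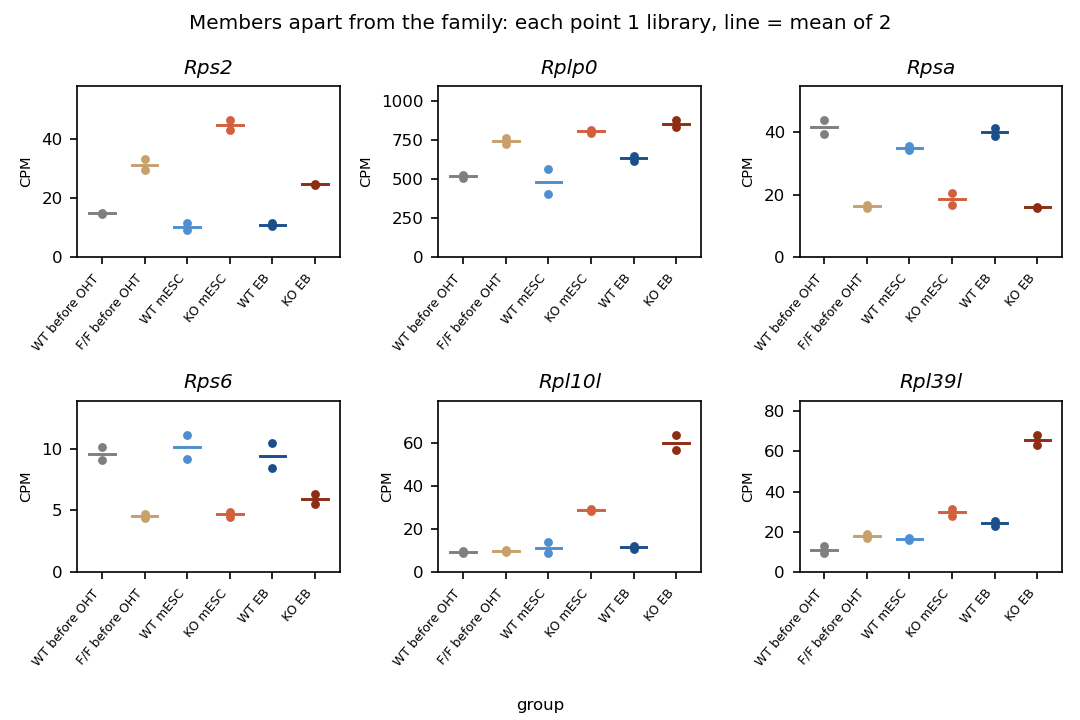
CPM of 6 members in each library (points) with the mean of each group of 2 (lines), linear axes from 0. Rps2 and Rplp0 are higher and Rpsa and Rps6 lower in F/F and KO within every condition, whereas Rpl10l is level before OHT (9.32 against 9.86 CPM) and highest in KO EB.

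Rpl10l had no called difference before OHT and was higher in KO after it. Rpl10l encodes a paralog of the X-linked large subunit protein Rpl10 and is best known from male germ cells. It had 9.71 and 8.93 CPM in WT before OHT, and 9.42 and 10.3 CPM in F/F. In mESC after OHT it had 8.83 and 14.2 CPM in WT and 29.7 and 28.3 CPM in KO, and in EB 11.0 and 12.3 CPM in WT and 63.8 and 57.0 CPM in KO. Groups overlapped before OHT and were apart in mESC and EB. The log2 fold change was 0.11 (SE 0.16, adjusted p = 0.63) before OHT, 1.29 (SE 0.14, adjusted p = 2.3e-06) in mESC and 2.31 (SE 0.15, adjusted p = 1.5e-09) in EB by edgeR. The genotype difference grew by 1.18 after OHT (SE 0.21, adjusted p = 0.0027) and by a further 1.02 from mESC to EB (SE 0.20, adjusted p = 0.0012).

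Rpl39l, the paralog of X-linked Rpl39, had 13.0 and 9.54 CPM in WT before OHT and 18.9 and 17.3 CPM in F/F. It had 16.9 and 15.9 CPM in WT mESC against 31.4 and 28.0 CPM in KO mESC, and 25.5 and 23.0 CPM in WT EB against 68.0 and 63.0 CPM in KO EB. Both F/F or KO libraries were above both WT libraries in each condition. Log2 fold changes were 0.70 (SE 0.12), 0.80 (SE 0.11) and 1.37 (SE 0.11). The difference in EB exceeded that in mESC by 0.58 (SE 0.16, adjusted p = 0.012), and that after OHT differed from that before by 0.10 (SE 0.17, adjusted p = 0.77), by edgeR. The EB excess lost its call without WT EB replicate 2 (0.50, adjusted p = 0.064), KO EB replicate 3 (0.52, adjusted p = 0.059) or KO mESC replicate 4 (0.52, adjusted p = 0.060). As printed above, neither paralog shares a 50-base word with its X-linked partner.

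The X-linked partners had few genotype calls. Rpl10, which joins the large subunit late in its assembly, had 29.9 and 37.4 CPM in WT before OHT and 31.6 and 28.9 CPM in F/F. It had 30.6 and 28.1 CPM in WT mESC, 23.9 and 24.3 CPM in KO mESC, 23.3 and 22.1 CPM in WT EB, and 21.0 and 21.6 CPM in KO EB. Its genotype log2 fold change was -0.35 (SE 0.10, adjusted p = 0.013, edgeR) in mESC and was not called before OHT (-0.13) or in EB (-0.16). The mESC call ended without WT mESC replicate 1 (-0.23, adjusted p = 0.15) or KO mESC replicate 3 (-0.31, adjusted p = 0.091). Rpl39 ranged from 308 to 366 CPM before OHT, from 228 to 310 in mESC after OHT and from 186 to 237 in EB. None of its 3 genotype comparisons was called (0.21, -0.25 and -0.07). Its mESC difference was called without WT mESC replicate 1 (-0.32, adjusted p = 0.030) or KO mESC replicate 3 (-0.35, adjusted p = 0.043).

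Rps4x, the X-linked small subunit member, had 96.3 and 92.0 CPM in WT before OHT and 110 and 106 CPM in F/F. It had 68.0 and 67.3 CPM in WT mESC, 80.9 and 72.6 CPM in KO mESC, 96.3 and 99.5 CPM in WT EB, and 105 and 107 CPM in KO EB. The F/F libraries were higher by 0.22 (SE 0.07, adjusted p = 0.013, edgeR), a call that ended without WT replicate 2 before OHT (0.19, adjusted p = 0.095) and under upper-quartile scaling (0.16, adjusted p = 0.074). The later genotype comparisons were not called (0.12 and 0.05). Rpl36a, also X-linked, averaged 4.55 CPM and was under the limit.

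Rps4l and Rps27l complete the paralogs among the members. Rps4l, annotated in GENCODE as a transcribed processed pseudogene, had 238 and 229 CPM in WT before OHT, 219 and 238 in F/F, 148 and 256 in WT mESC, 276 and 297 in KO mESC, 319 and 383 in WT EB, and 319 and 284 in KO EB. Its call in mESC (0.46, SE 0.15) ended without WT mESC replicate 1 (0.16, adjusted p = 0.30) or KO mESC replicate 4 (0.37, adjusted p = 0.16). Rps27l, known as a p53 target, ranged from 92.2 to 128 CPM over all libraries. It was lower in KO mESC by a log2 fold change of -0.25 (SE 0.07, adjusted p = 0.011, edgeR), which ended without any 1 of WT mESC replicate 1, KO mESC replicate 3 or KO mESC replicate 4 (-0.23 to -0.25, adjusted p = 0.053 to 0.067).

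**Figure D4:**
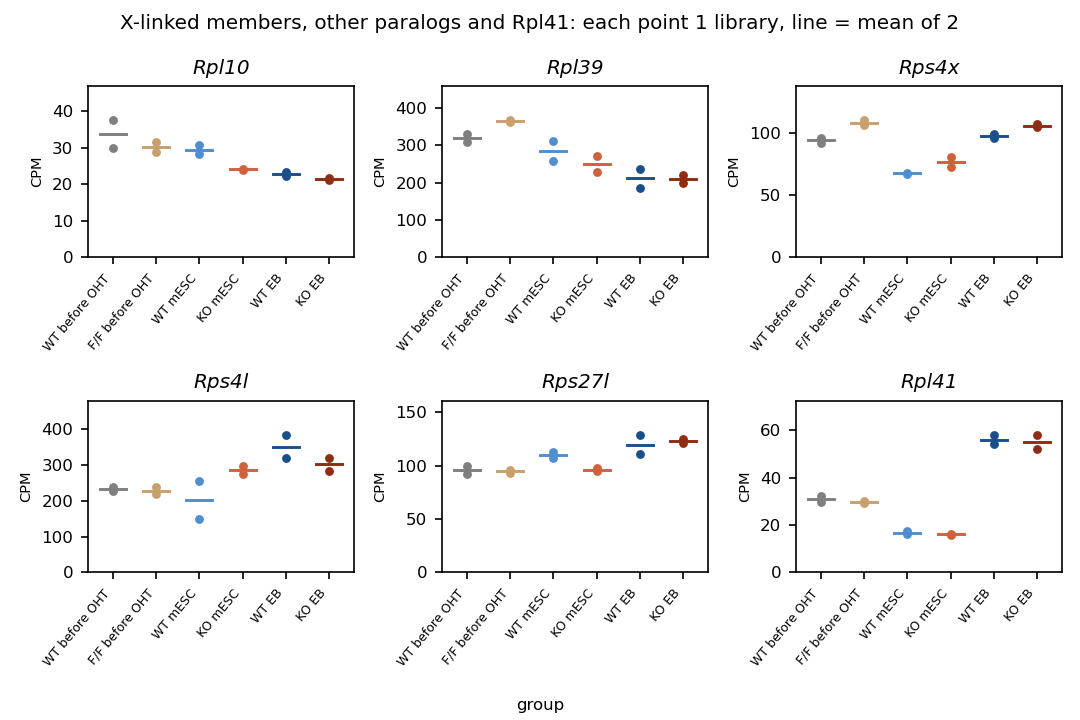
CPM of the X-linked members Rpl10, Rpl39 and Rps4x, the paralogs Rps4l and Rps27l, and Rpl41 in each library (points) with the mean of each group of 2 (lines), linear axes from 0. Rpl41 changes with condition, from 16.8 and 16.1 CPM in mESC to 56.1 and 55.0 CPM in EB, and WT mESC replicate 1 is the lower of the Rps4l points in its group.

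Conditions were compared within each genotype, and cannot be told apart from the first part of the description label. From mESC to EB, 21 members were higher and 11 lower in WT, where 32.5% and 29.8% of all genes were called higher and lower. In KO, 13 were higher and 9 lower, against 31.4% and 27.6% of all genes. The family median was 0.08 in WT and 0.01 in KO, beside 0.04 in both for all genes. Without WT mESC replicate 1, 14 were higher and 12 lower in WT EB. A fit of only the compared groups gave 15 higher and 19 lower in KO EB. The share of all genes called in that fit is not given here, so this count has no background beside it.

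Rpl41, the shortest ribosomal protein, stood farthest from the family between mESC and EB. It had 32.4 and 29.6 CPM in WT before OHT and 30.2 and 29.5 CPM in F/F. It had 16.2 and 17.3 CPM in WT mESC, 15.8 and 16.3 CPM in KO mESC, 57.9 and 54.2 CPM in WT EB, and 57.9 and 52.0 CPM in KO EB. The conditions did not overlap, and genotypes did not differ by a call in any condition. The log2 fold change from mESC to EB was 1.73 (SE 0.08) in WT and 1.75 (SE 0.09) in KO. From before to after OHT it was -0.80 (SE 0.08) in WT and -0.89 (SE 0.09) in KO.

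Several other large subunit members changed between conditions in both genotypes. Rpl37a had 17.7 to 20.5 CPM before OHT, 31.6 to 37.1 in mESC after OHT and 16.5 to 21.6 in EB. Its log2 fold change to EB was -0.93 (SE 0.11) in WT and -0.87 (SE 0.11) in KO. Rpl18 was lower in mESC after OHT, at 46.6 to 57.0 CPM, than before OHT (93.5 to 106 CPM) or in EB (82.8 to 106 CPM). Rpl27 rose to EB by 1.16 (SE 0.14) in WT and 0.61 (SE 0.15) in KO. Of the small subunit members, Rps25 rose to EB by 0.53 (SE 0.12) and 0.74 (SE 0.13), and Rps4x by 0.52 (SE 0.07) and 0.45 (SE 0.07). Rpl15 fell by 0.78 (SE 0.09) and 0.34 (SE 0.09).

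After OHT compared with before, 14 members were higher and 17 lower in WT, against 24.9% and 24.2% of all genes. In KO mESC against F/F before OHT, 14 were higher and 13 lower, against 22.1% and 21.5%. Family medians were -0.08 in WT and 0.06 in the floxed lines, each beside 0.00 for all genes. Without WT mESC replicate 1 the WT median was 0.03. Upper-quartile scaling and library totals each gave 8 higher and 22 lower in WT, with all-gene medians of -0.09 in both. Rpl36, a large subunit protein, had the largest fall in WT, from 10.8 and 11.0 CPM to 1.99 and 4.91 CPM (log2 fold change -1.61, SE 0.25), and went from 11.1 and 9.69 to 5.12 and 5.21 CPM in the floxed lines, also called. The 1.99 CPM was that of WT mESC replicate 1, the library that stood apart. The 5S RNP member Rpl5 had 8.23 and 10.8 CPM in WT before OHT and 6.19 and 6.40 CPM in WT mESC (-0.51, SE 0.14, adjusted p = 0.0070, edgeR). Its genotype differences were not called.

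Tests of the difference between genotype effects called few members. By edgeR, the genotype log2 fold change was higher after OHT than before for 4 members, Rpl10l, Rps2, Rpl10a and Rpl7a, and lower for 0, where 4.07% and 3.79% of all genes were called in these directions. At an unadjusted p under 0.05 there were 12 members higher and 4 lower, against 11.6% and 13.1% of all genes. DESeq2 called 5 and 2, against 4.77% and 5.24% of the genes to which it gave an adjusted p. Except for Rpl10l and Rps2, these calls depended on the library set and the groups fitted: Rpl10a had 0.74 and Rpl7a 0.62 when only the compared groups were fitted (adjusted p = 0.059 each). With the cell line as a replicate block, 6 members were higher and 1 lower. Between mESC and EB, the genotype difference was higher for 3 members and lower for 9, against 14.8% and 13.7% of all genes. Rpl10l, Rpl39l and Rpl15 were the 3 higher ones. Scaling by library totals left 3 higher and 5 lower, and without WT mESC replicate 1 there were 2 higher and 5 lower.

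**Figure D5:**
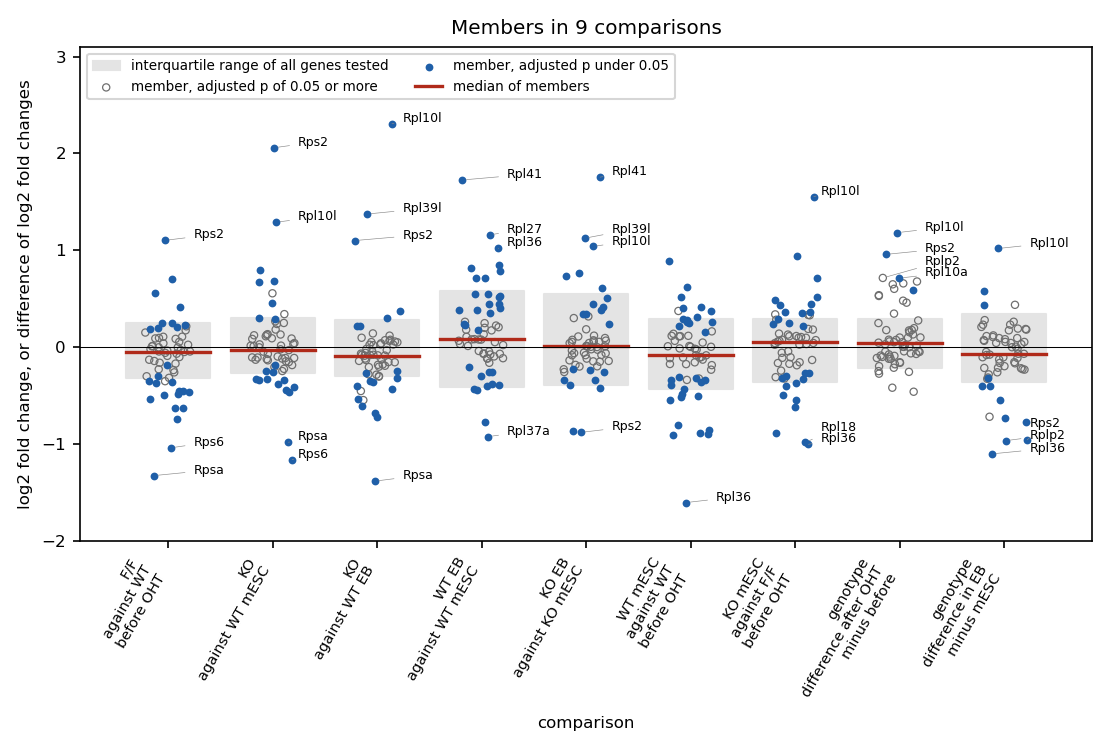
Log2 fold changes of the 61 members (points) in 7 group comparisons and differences of log2 fold changes in 2 tests of genotype effects, with the median of the members (red line) and the interquartile range of all genes tested (grey box); filled points passed an adjusted p under 0.05 and up to 4 members over 3 scaled median absolute deviations from the family median are named. Medians lie between -0.09 and 0.08, and the named members lie apart on both sides.

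Other gene lists of the ribosome pathway are given by their counts, beside the shares of all genes called in the same comparison. Of 80 ribosome biogenesis factors, 2 (2.50%) were higher and 29 (36.2%) lower in KO than WT mESC, where 19.8% and 18.6% of all genes were. In EB 3 (3.75%) were higher and 23 (28.7%) lower, against 20.7% and 19.7%, with medians of -0.12 in both comparisons. Before OHT 9 of the 80 were higher and 17 lower in F/F, against 19.9% and 17.5% of all genes. In the test of the genotype difference after OHT minus before, 1 of the 80 was called higher and 2 lower. Of all genes, 4.07% and 3.79% were called in these directions. For most of these factors, the difference in mESC was therefore not shown to exceed that between the lines before OHT. After OHT the same list had 60 higher and 1 lower in WT, against 24.9% and 24.2% of all genes. In the floxed lines 57 were higher and 3 lower, against 22.1% and 21.5%, with medians of 0.37 and 0.30. Of 77 mitochondrial ribosomal protein genes, 8 (10.4%) were higher and 9 (11.7%) lower in KO mESC, and 40 (51.9%) were higher and 1 lower after OHT in WT. From mESC to EB, 37 of them (48.1%) were higher and 5 (6.49%) lower in WT, against 32.5% and 29.8% of all genes. In KO 26 (33.8%) were higher and 8 (10.4%) lower, against 31.4% and 27.6%. Among 21 translation factors and other TOP messages, 3 (14.3%) were higher and 5 (23.8%) lower in KO mESC, and 2 (9.52%) and 7 (33.3%) in KO EB. Of 14 tested genes of RNA polymerase I and its factors, 11 were higher after OHT in WT and 7 in the floxed lines. Over the same OHT comparison in WT, 14 ribosomal protein genes (23.0%) were higher and 17 (27.9%) lower. This total joins unlike parts of the family. Of the 15 members with under 50% of words shared, 6 (40.0%) were higher and 1 (6.67%) lower. Of the 46 others, 8 (17.4%) were higher and 16 (34.8%) lower. In the floxed lines the less shared members had 7 higher and 1 lower, and the others 7 and 12. The part of sequence sharing in this was not tested.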

How the data were processed

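Total RNA of 12 libraries was sequenced on Illumina machines, per the labels' protocols. The authors deposited whole-number counts of reads per gene symbol, not normalized, in 1 table. The submitters' processing notes name BWA, HTSeq, DESeq2 and mm9, with no versions. Read length, strand setting and the handling of reads that match several places are not given in the sources used here. Levels are CPM of library totals, which ranged from 28600870 to 64808897.

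Counts were tested with edgeR 4.0.16 (R 4.3.3): quasi-likelihood F test, 1 model of 6 groups, TMM, filterByExpr, Benjamini-Hochberg adjustment at 0.05 over 17115 genes. On simulated counts for KO against WT mESC (15543 genes), 81% of 100 genes changed by 0.5 (log2) and 100% of 100 changed by 1 were recovered, and 5 of 186 calls were false. The simulation fitted only KO and WT mESC, held no differences between lines beyond the modelled spread, and changed only genes over 5 CPM. It therefore does not give the false-call rate of the tests in the model of 6 groups. With 2 libraries against 2, an exact permutation test cannot go below p = 0.333 (two-sided). Members, gene lists and tests were chosen with earlier results of these data known. Named members were the X-linked ones, paralogs with an l ending, Rpl5 and Rpl11, the 3 highest and 3 lowest per coding kilobase, those nearest the limit, the largest called changes and the members over 3 scaled median absolute deviations from the family median. 1 member that the rule picked is not reported by name here. Same-numbered samples are the same cell line, and so the numbers pair samples across conditions. The correlation of their deviations over 9769 genes was -0.18, -0.17 and 0.29 for line 5.3 and 0.09, -0.01 and -0.03 for line 15.10. Coding sequences and shared words came from GENCODE M21 and start sites from RefSeq, both of GRCm38. As the counts used another build, positions are given for printed sequences only. Alternatives covered scaling, DESeq2 1.42.0, the filter, the groups fitted, the replicate block, each library left out and other member rules.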

Additional observations from a re-analysis of the deposited data

Results flagged for a closer look

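Differences between genotype effects were flagged because the test of the difference itself passed the threshold (edgeR, adjusted p under 0.05). After OHT against before, the genotype log2 fold change was larger by 0.712 for Rpl10a, 1.182 for Rpl10l, 0.5885 for Rpl7a and 0.9569 for Rps2. The values of Rpl10a and Rpl7a lost their call in a fit of only the compared groups (0.74 and 0.62, adjusted p = 0.059 for both), and in several fits that left out 1 library. Without WT mESC replicate 1 they were 0.50 (adjusted p = 0.088) and 0.59 (adjusted p = 0.068).

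Between mESC and EB, the genotype log2 fold change was larger in EB by 1.018 for Rpl10l, 0.578 for Rpl39l and 0.4368 for Rpl15. It was lower in EB, with differences of -0.7731 for Rpl10a, -0.55 for Rpl27, -1.104 for Rpl36, -0.3228 for Rpl8, -0.9678 for Rplp2, -0.4023 for Rps15, -0.9595 for Rps2, -0.7366 for Rps4l and -0.4019 for Rpsa. Of these, Rpl8 had 1299 CPM in WT mESC replicate 1, the library that stood apart, and 1679 in replicate 2. In the same libraries Rps4l had 148 and 256 CPM, Rplp2 34.1 and 82.5, and Rps15 292 and 394. Rpsa had 35.6 and 34.4 CPM there. Rpl36 lost its call in several fits, and without WT mESC replicate 1 its difference was -0.60 (adjusted p = 0.084). Rplp2 lost its call with DESeq2 (-0.95, adjusted p = 0.14), and Rpl15 lost its own without WT EB replicate 2 (0.26, adjusted p = 0.12). Condition coincided with the first part of the description label, which may mark a batch, and the part of that in these differences was not tested.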

How the results depend on the processing

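The 95 results for single members, recomputed under the alternatives, gave 908 values on the same side of the threshold, 72 that lost their call and 11 that gained one. 0 called values changed sign, and the sign changes among uncalled values concerned Rpl10, Rpl39, Rps27l and Rps4l. Restricting the members to the 29 with a mean CPM of at least 50 gave 10 calls before OHT, 9 in KO mESC, 9 in KO EB, 18 in WT EB, 12 in KO EB against mESC, 15 and 11 after OHT in WT and floxed lines, 0 for the OHT difference and 5 for the EB difference, and an OHT median in WT of 0.064. The 15 members with under 50% of words shared gave 6, 7, 5, 8, 6, 7, 8, 1 and 5 calls in the same order, with medians of 0.084 before OHT and 0.11 and 0.22 after OHT in WT and floxed lines. These counts are lower by construction, since fewer members are counted. Fitting only the groups compared gave 34 calls for KO EB against mESC and 2 for the OHT difference. The OHT difference had 11 calls with no filter and 7 with DESeq2, and the cause was not tested. The replicate block gave 7 calls there and changed no other result by more than 1.5 times. Crossing the WT numbers before OHT, chosen after seeing the data, gave 9. The family share of counts, as a mean of libraries, was 1.28% without the 20 largest genes in the total and 1.07% for the members of at least 50 CPM.

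Leaving out 1 library gave 14 to 24 calls before OHT, where 14 came without WT replicate 2 and 16 without F/F replicate 4. It gave 10 to 26 in KO mESC (10 without KO mESC replicate 4) and 11 to 16 in KO EB (11 without KO EB replicate 3). From mESC to EB the ranges were 23 to 33 in WT and 18 to 21 in KO, and after OHT 23 to 35 and 18 to 23. The OHT difference gave 2 to 13, with 2 without WT before OHT replicate 1, KO mESC replicate 3 or 4, and 13 without WT mESC replicate 2. The EB difference gave 4 to 16, with 4 without KO mESC replicate 4 or KO EB replicate 4, 6 without WT EB replicate 2 and 7 without WT mESC replicate 1. Family medians ranged from -0.09 to -0.03 before OHT, -0.06 to -0.02 in KO mESC, -0.13 to -0.07 in KO EB, 0.04 to 0.12 in WT EB, -0.02 to 0.02 in KO EB against mESC, -0.10 to 0.03 and 0.02 to 0.07 after OHT, 0.01 to 0.07 for the OHT difference and -0.09 to -0.02 for the EB difference. Counting depth limits the members near 5 CPM most. Shares of all genes called in the fits without 1 library are not given here. Whether these member counts moved with those of all genes was not tested.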
